A study of Mus musculus with 6 samples.

Results

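The 10 genes described here encode intermediate filament proteins: desmin (Des), vimentin (Vim), nestin (Nes), synemin (Synm), the keratins Krt7, Krt8, Krt18 and Krt19, and the nuclear lamins Lmna and Lmnb1. They were chosen by symbol to represent muscle, mesenchymal, simple epithelial and nuclear filaments, and all 10 of the 10 were found among the 18951 genes counted. The measurements are RNA-seq read counts from 6 cultures of heart cells of C57BL/6 mice at postnatal day 1. In 3 cultures, si-Rbm22, an siRNA against Rbm22 had been transfected. In the 3 others, si-Control, a scrambled siRNA had been transfected, and all cultures were collected after 48 h. Rbm22 encodes an RNA-binding protein of the spliceosome. Per the labels, hearts were dissociated with a kit, the cells stayed overnight in medium with serum, and cells over 97.5% pure by staining for cardiac troponin T were used. No label says how many hearts went into a culture, or whether replicates came from separate isolations, so p-values measure only the spread between these samples.

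Total counts were 36860678 to 37344860 in si-Rbm22 and 34269042 to 35955301 in si-Control. Levels are CPM, that is read counts relative to the size of the library after TMM scaling, and are given as mean ± SD over 3 libraries per group. Rbm22 had 533, 466 and 491 reads in si-Rbm22 and 798, 916 and 774 reads in si-Control, and its log2 fold change was -0.78 (SE 0.10, adjusted p = 4.22e-06 by edgeR's quasi-likelihood test). Rbm22 was thus lower in si-Rbm22, the direction the label gives, but the cell type label was not met in the si-Control group. A knockdown and the difference in cell content given next cannot be told apart in the Rbm22 value. The summed level of 12 cardiomyocyte markers was 26074 to 41292 CPM in si-Rbm22 and 133 to 151 CPM in the libraries labelled si-Control, where the phospholamban gene Pln, Mybpc3, Nppa, Myl7 and Myl3 had 0 reads. The summed level of 10 genes of skeletal muscle precursors was 0.74 to 1.25 CPM in si-Rbm22, with Myod1, Cdh15, Myf5 and Cacng1 at 0 reads, and 649 to 665 CPM in the libraries labelled si-Control. Because this concerns all 3 libraries labelled si-Control, no comparison without them can be made, and what the difference in cell content contributes to the values that follow was not tested. In bulk RNA, fewer cells of a type and less RNA per cell cannot be told apart. Of 14621 genes tested, 82% passed the test in either direction, 43.1% as higher and 38.9% as lower in si-Rbm22, and the 2 groups of libraries did not overlap for 84.2%. Differences in the 10 genes are to be read against that background.

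Intermediate filaments are rope-like polymers that give cells and nuclei mechanical strength, and which proteins build them depends on the cell type. Desmin is the main one of heart and skeletal muscle, where it ties the Z-discs of neighbouring myofibrils to each other and to the membrane. Vimentin is typical of fibroblasts, endothelial cells and other mesenchymal cells, and nestin and synemin join desmin or vimentin filaments. Simple epithelia, and the mesothelium that covers the heart as its epicardium, assemble keratin filaments from a type II partner (Krt7 or Krt8) and a type I partner (Krt18 or Krt19). The lamins form the meshwork under the inner nuclear membrane. Lamins A and C, both from Lmna, become abundant in differentiated and mechanically loaded cells, whereas B-type lamins such as Lmnb1 are found in nearly all nuclei.

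The stretch in front of the transcription start is shown for the 3 keratin genes with the fullest contrast between the groups and an entry in the table of RefSeq promoters (GRCm38.p6), and for Des as the muscle gene. Each is the 250 bases before the RefSeq start, 5′ to 3′ on the gene's strand. Capitals mark every match, on either strand, to 5 short motifs. They are GGGCGG, the box bound by Sp1 and KLF factors; CAGCTG, an E-box bound by MyoD and its relatives; TGANTCA, recognised by the AP-1 factors; CATTCC, recognised by the TEAD family; and AGATAA, recognised by the zinc finger proteins of the GATA family. The stretches are Krt7 chr15:101412153-101412402 (plus strand), Krt8 chr15:102004343-102004592 (minus strand), Krt18 chr15:102027966-102028215 (plus strand) and Des chr1:75360042-75360291 (plus strand).
Krt7: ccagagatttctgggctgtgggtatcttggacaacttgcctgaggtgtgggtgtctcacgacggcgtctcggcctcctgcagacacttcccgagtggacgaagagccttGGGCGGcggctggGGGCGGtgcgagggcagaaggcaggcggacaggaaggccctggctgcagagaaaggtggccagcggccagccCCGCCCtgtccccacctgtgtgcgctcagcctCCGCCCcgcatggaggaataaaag
Krt8: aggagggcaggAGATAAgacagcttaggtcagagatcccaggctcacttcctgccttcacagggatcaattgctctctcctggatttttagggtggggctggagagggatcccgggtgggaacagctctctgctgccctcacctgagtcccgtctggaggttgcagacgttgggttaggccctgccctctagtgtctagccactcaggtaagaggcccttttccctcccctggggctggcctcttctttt
Krt18: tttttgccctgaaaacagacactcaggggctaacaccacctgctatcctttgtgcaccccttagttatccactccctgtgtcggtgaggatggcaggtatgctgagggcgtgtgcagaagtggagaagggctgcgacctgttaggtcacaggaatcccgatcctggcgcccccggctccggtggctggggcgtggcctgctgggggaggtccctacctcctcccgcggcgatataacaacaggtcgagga
Des: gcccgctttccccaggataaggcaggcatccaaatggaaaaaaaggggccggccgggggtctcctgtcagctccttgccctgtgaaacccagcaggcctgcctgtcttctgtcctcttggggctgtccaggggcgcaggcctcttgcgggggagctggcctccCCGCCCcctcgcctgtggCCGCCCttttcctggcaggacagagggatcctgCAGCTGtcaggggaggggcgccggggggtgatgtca
Matches differed among keratin genes whose read counts moved together. Krt7 held 4 matches to GGGCGG, Krt8 held a single AGATAA, and Krt18 held none of the 5 motifs. Des held 2 matches to GGGCGG and a CAGCTG at positions -36 to -31 from the start. Of 32841 mouse promoters cut to the same 250 bases, 32.75% held GGGCGG, 13% CAGCTG, 6.751% TGANTCA, 12.64% CATTCC and 9.991% AGATAA, and no matches of different motifs overlapped in these genes. In all, stretches of 8 of the 10 genes were searched for the motifs. Among those not printed, Nes held 2 matches to GGGCGG, one of the stretches of Lmna held 1, and Vim and Synm held none of the motifs. GC content was 66.0% for Krt7, 58.0% for Krt8, 60.4% for Krt18 and 67.2% for Des, against a median of 52.4% over all promoters. A match is a run of letters and no evidence of binding, and a missing match says only that the letters are absent from this window. Krt19 and Lmnb1 had no entry.

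All 10 genes passed the test, 5 as higher and 5 as lower in si-Rbm22, beside 82% called among all tested genes. For none of the 10 did the libraries of the groups overlap, beside 84.2% without overlap among all tested genes. The higher ones were the 4 keratins and Lmnb1, and the lower ones were Des, Vim, Nes, Synm and Lmna. The median log2 fold change of the 10, keratins included, was 0.16, beside 0.05 over all tested genes. The 4 keratins entered the test only because of si-Rbm22: all 3 si-Rbm22 libraries but 0 libraries labelled si-Control lay above the filter's limit of 0.275 CPM, so those 4 had to differ and their number carries no weight. The 6 others were above the limit in every library.

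**Figure D1:**
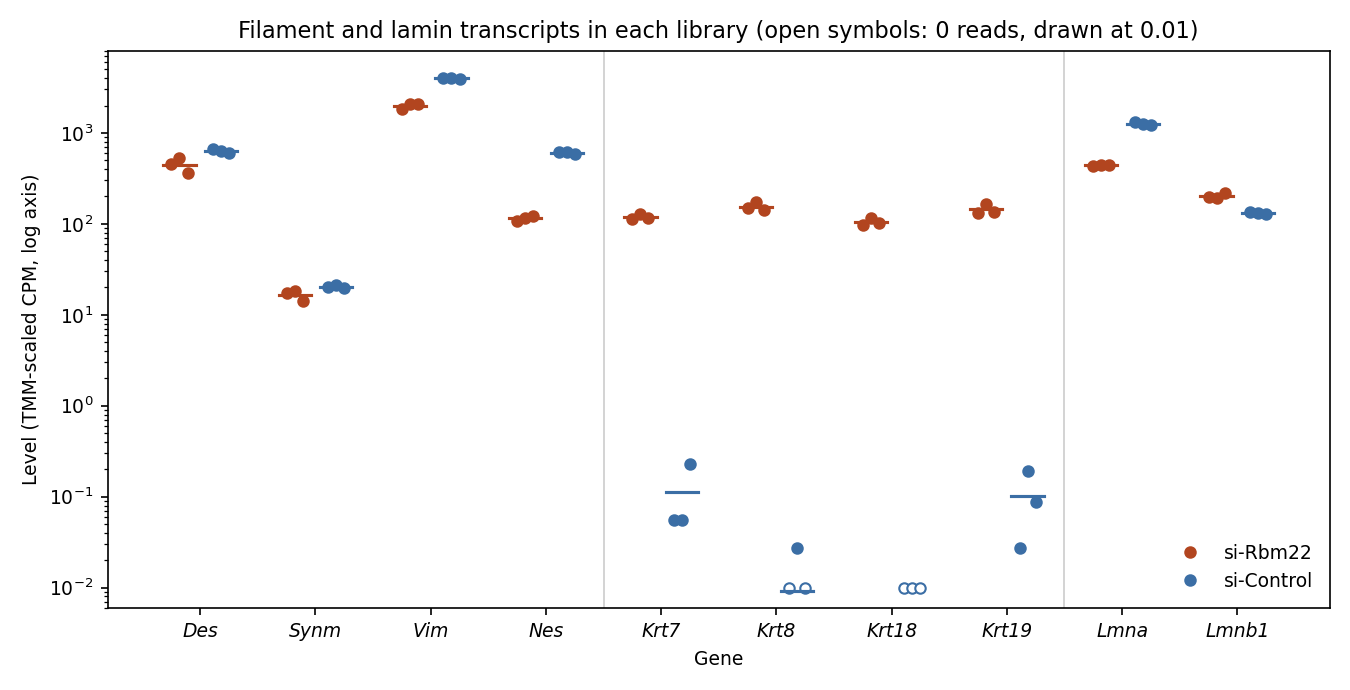
Level of each gene in each library, in TMM-scaled CPM on a log axis. Points are libraries, horizontal lines are group means, and open symbols mark libraries with 0 reads, drawn at 0.01. The keratins lie between 98.02 and 172 CPM in si-Rbm22 and at or below 0.23 CPM in si-Control, and Lmnb1 is the other gene that is higher in si-Rbm22. No gene shows overlap between the groups, beside 84.2% without overlap among all tested genes.

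The keratins were the members with the widest gap, at over 100 CPM on average in si-Rbm22 and close to absent in the libraries labelled si-Control. Krt8, a type II keratin of simple epithelia (ENSMUSG00000049382; GRCm38 chromosome 15, 101996698 to 102004482, minus strand), had 5478, 6187 and 5276 reads in si-Rbm22, against 0, 1 and 0 reads in si-Control. Its usual partner Krt18, of type I (ENSMUSG00000023043; chromosome 15, 102028180 to 102032027, plus strand), had 3590, 4157 and 3803 reads in si-Rbm22 and 0 reads in each library labelled si-Control. Every si-Rbm22 library was thus high in both, with replicate 2 the highest, and a single read stood against them in the si-Control group. Krt8 averaged 154 ± 16.1 CPM in si-Rbm22 and 0.0092 CPM in si-Control. The ratio of summed reads per scaled library size was 16491, with a 95% counting interval of 2959 to 651387. Krt18 averaged 104.9 ± 9.29 CPM in si-Rbm22 and was at least 3748-fold higher than in si-Control, set at a floor of 3 reads over that group (0.028 CPM). That bound follows another rule than the intervals, whose lower limit for Krt18 is 3047. Adjusted p was 5.63e-15 for Krt8 and 6.24e-14 for Krt18 by edgeR's quasi-likelihood test. Both genes entered that test only through si-Rbm22 and had to differ, so these p-values carry no weight.

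Krt7, the other type II keratin of the group (ENSMUSG00000023039; chromosome 15, 101411043 to 101430313, plus strand), had 4109, 4632 and 4331 reads in si-Rbm22 and 2, 2 and 8 reads in si-Control. Krt19, the smallest keratin, which lacks most of the tail domain (ENSMUSG00000020911; chromosome 11, 100140810 to 100148665, minus strand), had 4851, 5898 and 5112 reads in si-Rbm22 and 1, 7 and 3 reads in si-Control. Both were high in all 3 si-Rbm22 libraries, again with replicate 2 on top, and had a few reads in every library labelled si-Control. Krt7 averaged 119 ± 8.75 CPM in si-Rbm22 and 0.11 ± 0.10 CPM in si-Control, with a ratio of summed reads of 1060 and an interval of 607 to 2053 (adjusted p = 2.16e-14 by edgeR). Krt19 averaged 144 ± 17.2 CPM in si-Rbm22 and 0.10 ± 0.08 CPM in si-Control, with a ratio of summed reads of 1404 and an interval of 784 to 2812 (adjusted p = 9.41e-13 by edgeR). The adjusted p-values of Krt7 and Krt19 carry no weight either, since both were tested only through si-Rbm22. Such floors and intervals describe counting error and nothing more, because PCR copies of a molecule cannot be recognised without molecular identifiers.

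Markers of the mesothelium and epicardium were higher in si-Rbm22, like the keratins, and so were the sums of cardiomyocyte, endothelial and macrophage markers. Many of these genes were above the filter's limit in no library labelled si-Control and, like the 4 keratins, had to be higher. They were 6 of 11 tested epicardial, 7 of 12 cardiomyocyte, 7 of 12 endothelial and 6 of 9 macrophage genes. The summed level of the 11 mesothelial and epicardial genes was 2475 to 2727 CPM in si-Rbm22 and 101 to 105 CPM in the libraries labelled si-Control. Upk3b, Upk1b, Gpm6a and Aldh1a2 had 0 reads there, while Msln still had 46.6 ± 1.21 CPM beside 208 ± 16.4 CPM in si-Rbm22. Within si-Rbm22 the epicardial sum and the keratins differed in order. That sum was 96.8, 96.7 and 106.5% of the group mean in replicates 1, 2 and 3, highest in replicate 3. Each keratin was highest in replicate 2, as with Krt8 at 97.1, 111.6 and 91.3% of its group mean. Of the other sums, those of cardiomyocyte and endothelial markers were highest in replicate 2 as well, and that of macrophage markers in replicate 3. The part of these markers in the keratin values was not tested. Near-identical copies make the keratin counts uncertain. GENCODE lists a processed pseudogene of Krt8 (Krt8-ps, 98.6% identical over 941 bases) and processed pseudogenes of Krt18 (Gm5200, 90.5% over 1267 bases, and Gm17847, 86.5% over 1065 bases), none of which has a row in the count table. Since the strand setting of the counting is not given in the sources used here, reads of the antisense gene Gm671 at Krt7 (77 shared exonic bases) and of the lincRNA Gm36026 at Krt8 (101 bases) cannot be told apart from those of the keratins.

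Krt8, Krt18 and Krt19 had similar levels in si-Rbm22. Per exonic kilobase (RPKM), the mean level there was 78.6 ± 8.24 for Krt8, 77.7 ± 9.25 for Krt19, 73.0 ± 6.46 for Krt18 and 16.9 ± 1.24 for Krt7. The log2 ratio of the type II pair to the type I pair was -0.60, -0.67 and -0.71 in si-Rbm22, and -0.93, -2.25 and -0.51 in si-Control, where it rested on the few reads given above. The groups overlapped, with a difference of 0.57 and p = 0.4 by a two-sided exact permutation test, whose smallest possible p is 0.1. The difference turned to -0.27 (exact p = 1) when reads were not divided by length, so no direction can be read from it. In si-Rbm22, too, the reads as counted were more numerous for the type II pair in each library, while the level per kilobase was higher for the type I pair. The length used for Krt7, 7049 exonic bases, is well above its longest transcript of 4094 bases, and its level per kilobase depends on that choice.

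Desmin was lower in si-Rbm22. Des (ENSMUSG00000026208; chromosome 1, 75360329 to 75368579, plus strand) had 456, 525 and 365.05 CPM in the si-Rbm22 libraries and 669, 631 and 599.8 CPM in the libraries labelled si-Control. All si-Rbm22 libraries lay under all others, and replicate 3 was the lowest, at 81.4% of its group mean. The log2 fold change was -0.50 (SE 0.11, adjusted p = 0.00256 by edgeR), or 1.41-fold lower. The sum of the cardiomyocyte markers, given above, was higher in si-Rbm22, and it too was lowest in replicate 3, at 72.9% of the group mean. Skeletal muscle precursors also use desmin, and the sum of their genes was lower in si-Rbm22. What either cell type gave to the desmin reads was not tested. An antisense gene, Gm15179, shares 220 exonic bases with Des.

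Synemin, a large filament protein that anchors desmin filaments to costameres, showed the smallest difference of the 10. Synm (ENSMUSG00000030554; chromosome 7, 67730160 to 67759742, minus strand) had 17.3, 18.3 and 14.1 CPM in si-Rbm22 and 20.1, 21.4 and 19.7 CPM in si-Control. The groups did not overlap, but the gap between the nearest libraries was small, and si-Rbm22 replicate 3 was again the lowest. The log2 fold change was -0.30 (SE 0.11, adjusted p = 0.017 by edgeR). Without si-Control replicate 2 it was -0.28 with an adjusted p of 0.0577 by edgeR, so the call was lost there with little change in the estimate. Without each other library the call was kept, at an adjusted p of up to 0.0477 (without si-Rbm22 replicate 3). Larger absolute changes were fitted for 77.4% of the tested genes. Exons of Ttc23 (84 bases) and Gm45102 (426 bases) overlap Synm on the other strand.

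Vimentin was lower in si-Rbm22, though in both groups it had the highest level per kilobase of the 10 genes. Vim (ENSMUSG00000026728; chromosome 2, 13573927 to 13582826, plus strand) had 1824, 2064 and 2069 CPM in the si-Rbm22 libraries and 4024, 3996 and 3934 CPM in the libraries labelled si-Control. The groups lay far apart, and the spread within each was small. The log2 fold change was -1.005 (SE 0.06, adjusted p = 2.10e-09 by edgeR), or 2.01-fold lower. The summed level of 12 genes of fibroblasts and their matrix was 9859 to 10023 CPM in si-Rbm22 and 34758 to 38012 CPM in si-Control. Not all of them went that way: 3 were higher, 8 lower and 1 did not pass, beside 43.1% higher and 38.9% lower among all tested genes. Thy1 and Tcf21 were above the filter's limit in no library labelled si-Control and had to be higher. Endothelial cells also contain vimentin, and the sum of 12 of their markers was 441 to 490.5 CPM in si-Rbm22 and 9.25 to 11.2 CPM in si-Control. The part of these cells in the vimentin level was not tested.

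Nestin fell most of the 6 genes above the filter's limit in every library. Nes (ENSMUSG00000004891; chromosome 3, 87971078 to 87980451, plus strand), a large filament protein of neural and muscle progenitors, had 108.8, 116 and 120.4 CPM in si-Rbm22 and 619, 615 and 582 CPM in si-Control. All si-Rbm22 libraries were well under all libraries labelled si-Control. The log2 fold change was -2.39 (SE 0.06, adjusted p = 1.75e-13 by edgeR), or 5.25-fold lower. Of the tested genes, 22.9% had a larger absolute change. The sum of the skeletal muscle precursor genes was lower in si-Rbm22 too. Of the 9 precursor genes tested, however, 7 were above the filter's limit in no si-Rbm22 library and had to be lower. What these genes have to do with the nestin level was not tested.

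**Figure D2:**
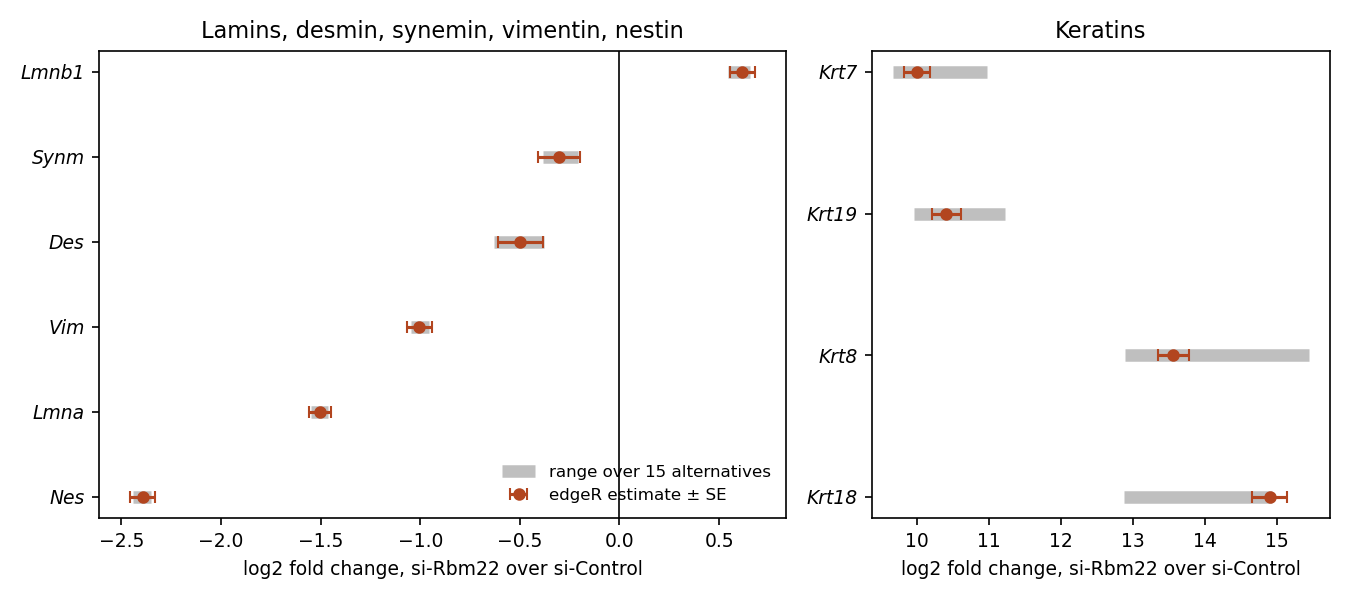
Log2 fold change of each gene, si-Rbm22 over si-Control, as estimated by edgeR with its SE (points and whiskers), over the range of 15 other processing settings (grey bars). Left, the 6 genes above the filter's limit in every library, from Lmnb1 at 0.62 to Nes at -2.39. Right, the keratins, on another axis; their estimates depend on how 0 to 12 reads in si-Control are treated, and the counting intervals and the bound in the text take their place.

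The lamins went in opposite directions. Lmna (ENSMUSG00000028063; chromosome 3, 88480147 to 88509956, minus strand), the source of lamins A and C, had 432, 447 and 449 CPM in si-Rbm22 and 1315, 1242 and 1206 CPM in si-Control. Every si-Rbm22 library was far below every library labelled si-Control, a log2 fold change of -1.50 (SE 0.06, adjusted p = 1.08e-11 by edgeR), or 2.83-fold lower. Lmnb1 (ENSMUSG00000024590; chromosome 18, 56707813 to 56753424, plus strand), a B-type lamin that keeps its farnesyl anchor in the nuclear membrane, had 195, 191 and 218 CPM in si-Rbm22 and 133, 132 and 129 CPM in si-Control. Here the si-Rbm22 libraries were all the higher ones, with replicate 3 at the top, and the log2 fold change was 0.62 (SE 0.06, adjusted p = 4.08e-07 by edgeR), or 1.53-fold higher. The other B-type lamin gene, Lmnb2, did not share this rise and had 28.5 ± 3.10 CPM in si-Rbm22 and 79.5 ± 4.88 CPM in si-Control (log2 fold change -1.48, adjusted p = 6.31e-10 by edgeR).

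Within a library, the balance of the lamins does not depend on scaling between libraries. The log2 ratio of Lmna to Lmnb1 per kilobase was 0.17, 0.25 and 0.06 in si-Rbm22 and 2.32, 2.25 and 2.25 in si-Control, so Lmna exceeded Lmnb1 by far more in si-Control. How large the excess was depends on the length used: with the longest transcripts the log2 ratio averaged 0.66 in si-Rbm22 and 2.78 in si-Control, and without division by length 1.14 in si-Rbm22 and 3.25 in si-Control. The difference between the groups, which does not depend on the length, was -2.12, and p = 0.1 by a two-sided exact permutation test was the smallest that 3 against 3 allows. Both lamin genes together came to 144 ± 5.92 RPKM in si-Rbm22 and 259 ± 10.2 RPKM in si-Control. Genes of dividing cells (Lmnb1 is known to be lost when cells senesce) went the other way from Lmnb1. Of 14 tested, 0 were higher and 13 lower in si-Rbm22, beside 43.1% higher and 38.9% lower among all tested genes. Their sum was 917 to 1093 CPM in si-Rbm22 and 2201 to 2253 CPM in si-Control. Among the si-Rbm22 libraries, replicate 3 was the highest for both, at 108% of the group mean for Lmnb1 and 109% for that sum. The part of dividing cells in the lamin values was not tested.

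**Figure D3:**
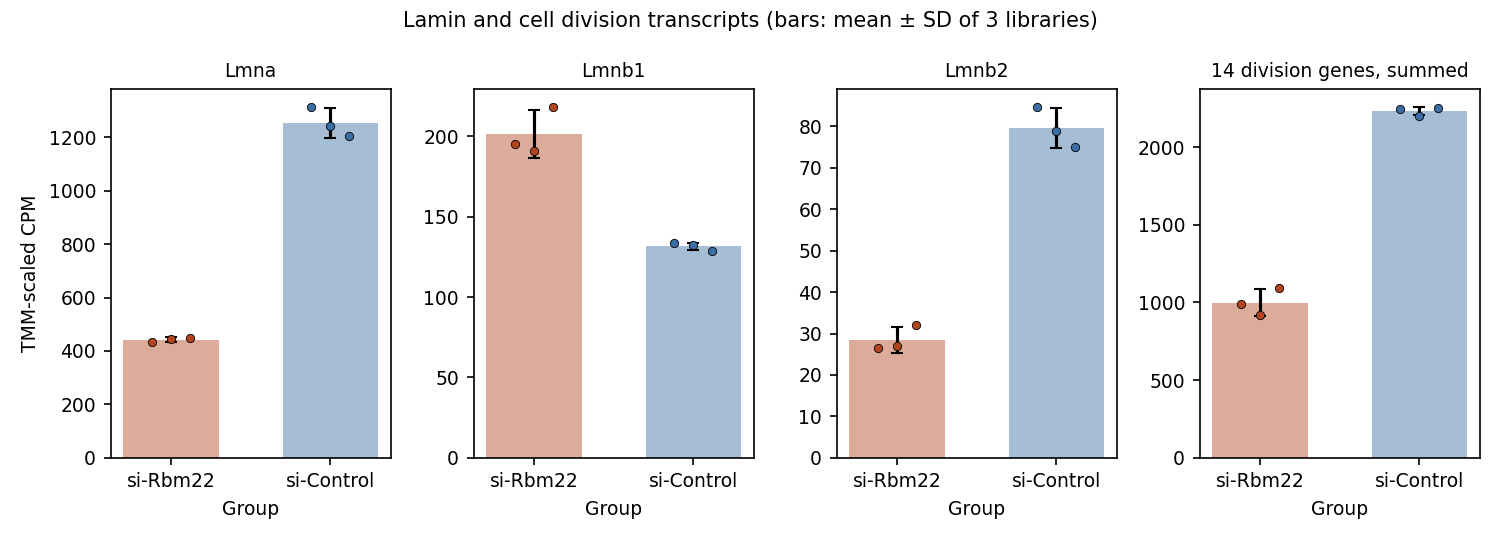
Levels of Lmna, Lmnb1, Lmnb2 and the sum of 14 genes of dividing cells, in TMM-scaled CPM. Bars start at 0 and show the mean, whiskers the SD, and points the 3 libraries of a group. Lmnb1 is the one panel with higher si-Rbm22 libraries (191 to 218 CPM, against 129 to 133 CPM in si-Control).

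Set side by side per exonic kilobase, the order of the genes differed between the groups. In si-Rbm22 it ran from Vim (419 ± 29.6 RPKM) and Des (119.5 ± 21.4 RPKM) to a close set of Krt8, Krt19, Lmna (75.8 ± 1.54 RPKM), Krt18 and Lmnb1 (68.0 ± 5.00 RPKM), whose libraries overlapped from each gene to the next. Nes (17.96 ± 0.92 RPKM) and Krt7 followed with overlapping libraries, and Synm was last at 2.09 ± 0.27 RPKM. That close set depends on the length used: divided by the longest transcript, Lmna was at 112 ± 2.27 CPM per kilobase in si-Rbm22, above Krt19 (91.5 ± 10.9), Krt8, Krt18 and Lmnb1 (70.9 ± 5.21), and Krt7 (29.0 ± 2.14) was above Nes (18.8 ± 0.97). In si-Control, Vim (840.2 ± 9.73 RPKM) was followed by Lmna (215 ± 9.50 RPKM), Des (169 ± 9.21 RPKM), Nes (94.4 ± 3.18 RPKM), Lmnb1 (44.4 ± 0.82 RPKM) and Synm (2.57 ± 0.11 RPKM), with no overlap between neighbours, and the keratins came last at 0.06 RPKM or less. The summed level of the 8 cytoplasmic filament genes was 804 ± 58.7 RPKM in si-Rbm22 and 1106 ± 21.8 RPKM in si-Control, and the 10 genes together took 0.37% of all reads in si-Rbm22 and 0.67% in si-Control.

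The make-up of that cytoplasmic sum differed between the groups, with less vimentin and more keratin in every si-Rbm22 library. Vim accounted for 50.8, 50.0 and 55.5% in the si-Rbm22 libraries and 75.4, 76.0 and 76.6% in the libraries labelled si-Control, a difference of -23.9 percentage points (p = 0.1 by a two-sided exact permutation test, the smallest possible). The difference was -11.7 points when reads were not divided by length. The keratins made up 30.6 ± 1.03% in si-Rbm22 and 0.0069 ± 0.0047% in si-Control. Nes had a share of 2.24 ± 0.15% in si-Rbm22 and 8.53 ± 0.13% in si-Control. The share of Des was 14.8 ± 2.13% in si-Rbm22 and 15.2 ± 0.54% in si-Control, and here the libraries of the groups overlapped.

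**Figure D4:**
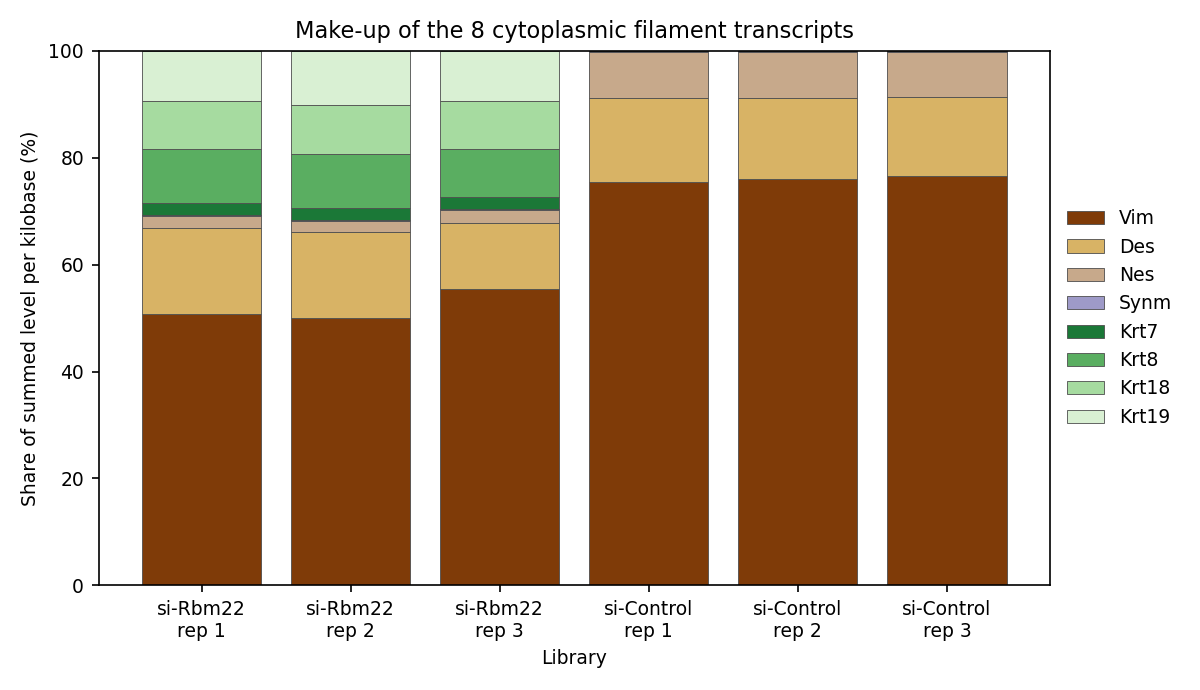
Share of each gene in the summed level per kilobase of the 8 cytoplasmic filament genes, in percent, for each library (bars, stacked to 100%). Vimentin takes 50.0 to 55.5% in si-Rbm22 and 75.4 to 76.6% in si-Control; the 4 keratins in green add up to 30.6% on average in si-Rbm22 and are too small to see in si-Control.

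Of 19 linker and chaperone genes, all tested, 14 were higher and 2 lower, beside 43.1% higher and 38.9% lower among all tested genes, and the median log2 fold change was 1.23. Dsp, Nebl and Evpl were above the filter's limit in no library labelled si-Control, so 3 of the 14 had to be higher. Their summed level was 4877 to 6525 CPM in si-Rbm22 and 2738 to 2986 CPM in si-Control. Among the 4 with the highest mean CPM over all 6 libraries, the plakins Dst and Macf1, giant linkers between filament systems, had log2 fold changes of 1.11 (adjusted p = 0.00253 by edgeR) and 1.20 (adjusted p = 3.30e-07). Plec, which encodes plectin, the linker of desmin to Z-discs, was lower at 428 ± 54.9 CPM in si-Rbm22 and 1153 ± 79.6 CPM in si-Control (log2 fold change -1.43, adjusted p = 3.38e-08 by edgeR). Flnc, the muscle filamin, had 488 ± 65.5 CPM in si-Rbm22 and 508 ± 31.2 CPM in si-Control and did not pass the test (adjusted p = 0.571 by edgeR). Other members were chosen for mention after their values were seen. Dsp, desmoplakin, which fastens desmin or keratin filaments to desmosomes, had 972 ± 208 CPM in si-Rbm22 and 0.07 CPM in si-Control. Cryab, the small heat shock protein that protects desmin, had 417 ± 12.9 CPM in si-Rbm22 and 127 ± 4.86 CPM in si-Control. Sync, which encodes the desmin-binding protein syncoilin, was the other lower one, at 19.4 ± 0.85 CPM in si-Rbm22 and 46.6 ± 1.99 CPM in si-Control. The rise of the cardiomyocyte markers stands beside this list, and its part was not tested.

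Around the lamins, the genes were split. Of 20 genes of the lamina and the inner nuclear membrane, 8 were higher, 11 lower and 1 did not pass, beside 43.1% higher and 38.9% lower among all tested genes, and the median log2 fold change was -0.55. One of the 8, Mlip, was tested only through si-Rbm22 and had to be higher. Those with the highest mean CPM over all 6 libraries were Syne2, a nesprin that links the nucleus to the cytoskeleton (392 ± 47.7 CPM in si-Rbm22 and 57.8 ± 0.36 CPM in si-Control, log2 fold change 2.76), Tor1aip2 (log2 fold change 0.99), the nesprin partner Sun2 (126 ± 5.45 CPM in si-Rbm22 and 263 ± 8.16 CPM in si-Control, log2 fold change -1.06) and Tmpo (log2 fold change -0.04, adjusted p = 0.579 by edgeR). The emerin gene Emd, named after its values were seen, had 44.2 ± 2.50 CPM in si-Rbm22 and 84.1 ± 3.29 CPM in si-Control. Of 7 genes for lamin processing, 2 were higher, 3 lower and 2 did not pass, against the same shares over all genes. Zmpste24, the protease that matures prelamin A, was among the higher ones (log2 fold change 0.49, adjusted p = 2.78e-06 by edgeR), with Icmt at 0.25, and Fnta, a subunit of the farnesyl transferase, was lower (log2 fold change -0.73, adjusted p = 2.39e-08 by edgeR). Narf had a log2 fold change of -0.0013 and did not pass.

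Of 24 other filament genes in the table, 13 were tested, 6 higher, 4 lower and 3 not past the test, beside 82% called among all tested genes, and the median log2 fold change was 0.45. Nefl, Krt17, Krt20 and Krt222 were above the filter's limit in no library labelled si-Control, so these 4 of the 6 had to be higher. The 4 with the highest mean CPM over all 6 libraries were Lmnb2, Krt14, Iffo1 and Iffo2. Krt14, a keratin of stratified epithelia, had 63.4 ± 7.20 CPM in si-Rbm22 and 17.8 ± 1.10 CPM in si-Control (log2 fold change 1.83, adjusted p = 1.76e-10 by edgeR). Iffo1 was lower (log2 fold change -1.25, adjusted p = 1.28e-09 by edgeR), and Iffo2 had -0.09 (adjusted p = 0.274).

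**Figure D5:**
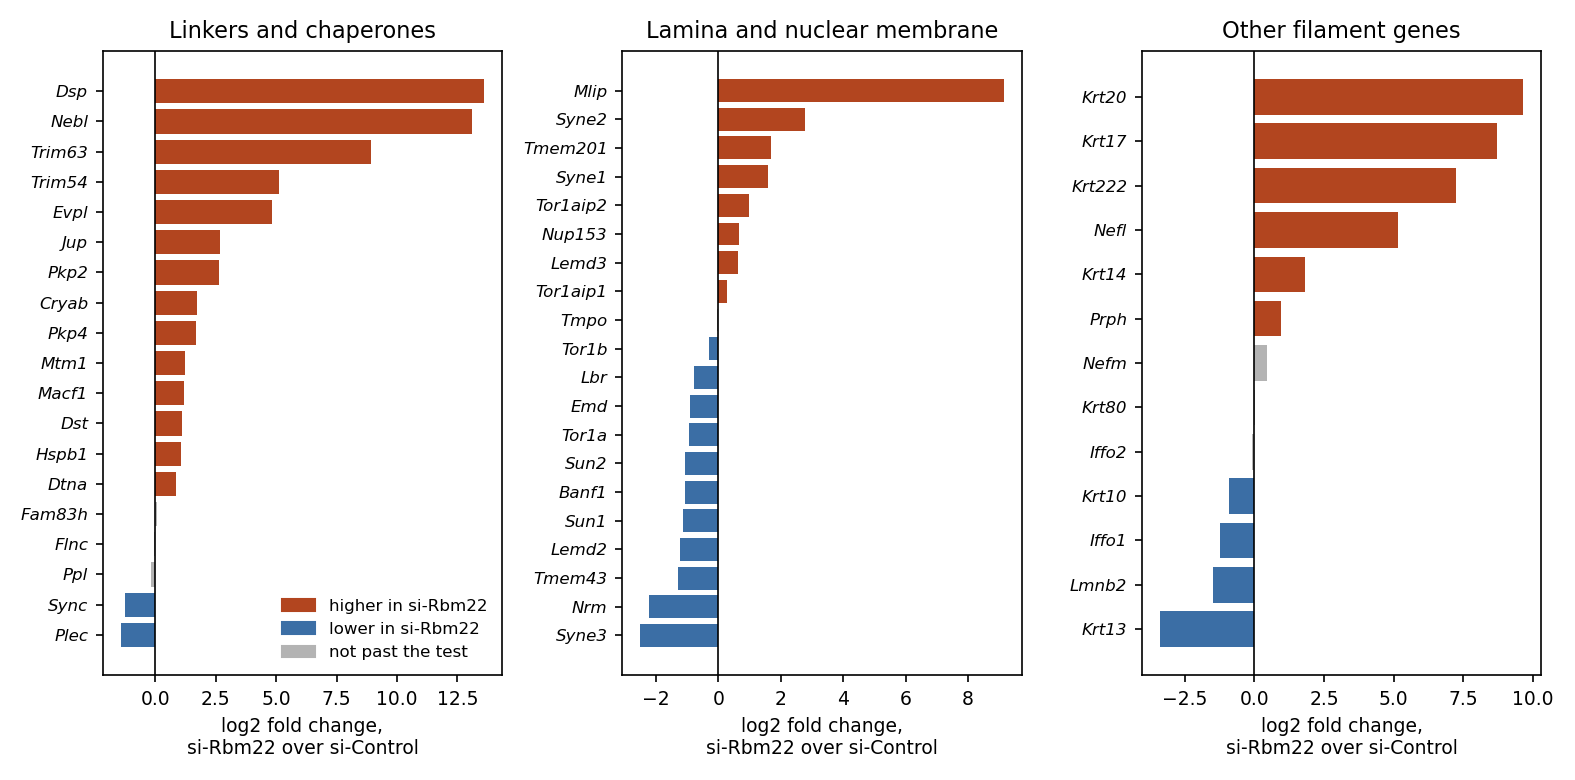
Log2 fold change, si-Rbm22 over si-Control, of the tested genes in 3 lists: filament linkers and chaperones (left), lamina and inner nuclear membrane (middle) and other filament genes (right). Bars are edgeR estimates without error bars, coloured by the test, and the axes differ between panels. In the left panel 14 of 19 genes, in the middle 8 of 20 and on the right 6 of 13 pass the test as higher in si-Rbm22; the longest bars belong to genes with almost no reads in si-Control and their length depends on how those are treated.

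The genes whose profiles over the 6 libraries lay nearest to each member were found by the root mean square distance between log2 CPM profiles, each centred on its mean, among 11154 tested genes of at least 5 CPM on average. Psmg1 lay nearest to Vim (distance 0.02), Aebp1 was the second nearest to Nes after Fat4 (0.03 and 0.02), and Ext2 was nearest to Lmna (0.02), Sco1 to Lmnb1 (0.02), Fam214b to Des (0.02) and Nfe2l1 to Synm (0.04). Among the keratins, Pcsk5 was nearest to Krt18 (0.08), Fam49a to Krt7 (0.15), Sprr1a to Krt8 (0.18) and Nrk to Krt19 (0.27). Second nearest were Aldh1a2, of the epicardial list, to Krt18 (0.08), Tmem108 to Krt7 (0.16), Phactr2 to Krt8 (0.22) and Rcsd1 to Krt19 (0.30). Pcsk5 and Aldh1a2 had 0 reads in si-Control, as Krt18 did. Likeness over 6 libraries in 2 groups reflects mainly the size of the group difference, and for the keratins also the prior count of 2 that stands in for missing reads.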

How the data were processed

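The authors deposited raw read counts, whole numbers listed by Ensembl identifier for 6 libraries and not normalized. Tools listed in the submitters' processing notes are fastp, HISAT2, HTSeq and DESeq2, with GRCm38 as build; their versions, the annotation and the strand setting are not given in sources used here. Of 18951 identifiers, 18868 matched GENCODE M21 and 83 did not. Groups come from the sample titles.

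edgeR 4.0.16 (R 4.3.3) was fitted over all genes with TMM scaling, filterByExpr, a robust quasi-likelihood fit and Benjamini-Hochberg adjustment (threshold 0.05); 14621 genes were tested. The SE was derived from F (size of the log2 fold change over the root of F) and can fall under counting error where reads are few. RPKM divides CPM by the union of exons. Exact permutation tests used numpy 2.4.6, counting intervals used scipy 1.17.1, and copies were searched with blastn 2.17.0. The fit was tested on simulated counts. Replicates differed beyond sampling noise (chi-square per degree of freedom 10.5 to 30.9 in si-Rbm22 and 4.52 to 7.05 in si-Control), so each library counts as 1 sample.

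Named in the text are all 10 genes, Rbm22, the 4 tested members with the highest mean CPM over all libraries of each filament, linker or lamina list, and the nearest profiles; of the cell type lists, sums, counts and the markers at 0 are given instead. Members and lists were chosen with earlier results of these data known. Alternatives were other scalings, filters, DESeq2 1.42.0, limma 3.58.1 (voom), a block on replicate number and each library left out.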

Additional observations from a re-analysis of the deposited data

How the results depend on the processing

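Across 15 alternative settings and 27 genes, 397 of 405 values kept their direction and their side of the threshold. The exceptions were Synm without si-Control replicate 2 (-0.28, adjusted p = 0.0577), Flnc without si-Rbm22 replicate 3 (0.034; -0.16 to 0.034 without each library in turn), Tmpo with a filter of 10 CPM (0.0019) and without si-Rbm22 replicate 3 (-0.11, adjusted p = 0.0426), and Narf with RLE size factors (0.0155), a filter of 10 CPM (0.0385), DESeq2 (0.0092) and without si-Rbm22 replicate 3 (0.079; -0.071 to 0.079 without each library in turn), where Flnc and Narf stayed short of the threshold; the causes were not tested. Of the 10 genes, 9 to 10 passed when a library was left out. Genes past the test numbered 8772 with the filter of 10 CPM, 13057 with no filter and 11773 to 12315 without a library. With that filter 3 other filament genes passed, against 10. Without division by length, the type II to type I keratin difference was -0.27; without a library it lay between 0.06 and 0.93, and the vimentin share difference between -25.6 and -22.8 points.

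Whether replicate numbers pair the samples could not be settled. Correlations of deviations were weak, at -0.0079, 0.054 and 0.109 between equal numbers and -0.098 to 0.054 between unequal numbers. With the replicate number as a block, 11945 genes passed, the 10 genes among them, and sign-flip p-values for the pairing were 0.25 for the vimentin share, 0.5 for the keratin ratio and 0.25 for the lamin ratio.

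Depth limits the keratins: si-Control holds 0 to 12 reads of each, and their folds are intervals or bounds.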

Other observations

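The keratin family beyond the 4 genes was mostly silent. Of 53 annotated keratin genes, 32 were in the table and 12 were tested, of which 8 were higher, 3 lower and 1 did not pass, beside 82% called among all tested genes. Of the 8, 7 were above the filter's limit in no library labelled si-Control and had to be higher, and Krt9, one of the 3, was above it in no si-Rbm22 library and had to be lower. Besides Krt14, small amounts of Krt20 (90, 109 and 106 reads in si-Rbm22 and 0 reads in si-Control), Krt222 (93, 64 and 57 reads in si-Rbm22 and 1, 0 and 0 in si-Control) and Krt17 (42, 83 and 34 reads in si-Rbm22 and 0 in si-Control) were counted. The lower ones were Krt13, with 4, 20 and 16 reads in si-Rbm22 and 143, 121 and 148 reads in si-Control, Krt10, with 32, 29 and 28 reads in si-Rbm22 and 52, 52 and 59 reads in si-Control, and Krt9, with 1, 0 and 0 reads in si-Rbm22 and 10, 16 and 20 reads in si-Control. Krt80 had 227, 232 and 307 reads in si-Rbm22 and 250, 267 and 224 reads in si-Control, which overlap.

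Krt8 and Krt18 lie 23697 bases apart on chromosome 15. Within 100 kb of them, 7 genes were in the table and 5 were tested. Krt8 and Krt18 were the 2 higher ones, and Eif4b (409 ± 12.2 CPM in si-Rbm22 and 746 ± 13.8 CPM in si-Control), Tns2 (67.5 ± 2.32 CPM in si-Rbm22 and 215 ± 11.7 CPM in si-Control) and Spryd3 (55.8 ± 2.18 CPM in si-Rbm22 and 74.2 ± 3.91 CPM in si-Control) were lower.

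The 10 markers of macrophages, which also contain vimentin, had a sum of 121 to 157 CPM in si-Rbm22 and 5.57 to 7.39 CPM in si-Control. The 10 genes of smooth muscle cells and pericytes, which contain both desmin and vimentin, had sums of 2348 to 2890 CPM in si-Rbm22 and 3185 to 3238 CPM in si-Control. Of these 10, however, 6 were higher and 4 lower, beside 43.1% higher and 38.9% lower among all tested genes. Their median log2 fold change was 2.51. Myh11 and Rgs5 were above the filter's limit in no library labelled si-Control and had to be higher. The 7 Schwann cell genes had sums of 354 to 394 CPM in si-Rbm22 and 276 to 287 CPM in si-Control.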
